A study of Mus musculus with 6 samples.

Results

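The nuclear-encoded subunit genes of mitochondrial complex I were followed in RNA-seq of mouse peritoneal macrophages. They were taken by name as the protein-coding genes called Ndufa, Ndufb, Ndufc, Ndufs or Ndufv with a number, together with Ndufab1, while the Ndufaf assembly factors were left out. The rule gave 38 of the 54532 genes in the deposited table. The cells came from the peritoneal cavity of wild-type male C57BL/6J mice aged 6 to 8 weeks, 5 days after an injection of 1 mL of 3% thioglycolate, an irritant that draws macrophages into the cavity. Control cells were untreated. Model cells were given LPS, a bacterial outer membrane component, at 500 ng/mL for 5.5 h and then 2 mM ATP for 0.5 h, a sequence that primes and then activates the NLRP3 inflammasome. MUS cells had that treatment too, and 50 µM muscone, a macrocyclic ketone of musk, was added 5 h after LPS and 0.5 h before ATP. Each of the 3 groups had 2 libraries, and every cell in the study carried the thioglycolate exposure. The labels do not say that replicates came from separate animals or cultures, so p-values measure only the spread between these libraries, which may be technical.

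Complex I (NADH:ubiquinone oxidoreductase) takes electrons from NADH, passes them along a flavin and a chain of iron-sulfur clusters to ubiquinone, and pumps protons across the inner mitochondrial membrane. Its catalytic core is made partly of proteins from nuclear genes, which form the matrix arm, and partly of proteins from mitochondrial DNA, which form the proton-pumping membrane arm. Accessory subunits from nuclear genes surround the core and are needed for its assembly and stability. In macrophages, complex I is known as a site where reactive oxygen species arise, and respiration falls when LPS turns the cells toward glycolysis.

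By role, the members were 7 core subunits, 9 accessory subunits of the matrix arm, 9 of the proximal membrane arm, 10 of the distal membrane arm (the Ndufb genes), the acyl carrier protein Ndufab1, and Ndufa4 and Ndufa4l2, which are now assigned to complex IV. Levels are given as FPKM (fragments per kilobase of gene, divided by a library size), the unit of the deposited table. A mean of at least 1 FPKM over the 6 libraries was required for testing, and 37 members passed. Ndufa4l2 (ENSMUSG00000040280, chromosome 10, 127514967 to 127517154, GRCm38), a paralogue of Ndufa4, had 0 fragments in all 6 libraries. A count of 0 allows up to 3 fragments, or 0.120 to 0.194 FPKM depending on the library, and this limit covers counting error only.

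The libraries held 15526321 to 17135442 fragments on genes. Between 17406 and 24906 genes had at least 1 fragment, and Model replicate 1 stood apart with the 24906. The macrophage markers Adgre1, Cd68, Csf1r, Lyz2, Itgam, Cd14, Fcgr1 and Mertk were all measured, with a summed level of 9574 to 14283 FPKM per library. Lyz2 made up most of this sum, and single markers moved in both directions. Mean FPKM of Csf1r was 240 in Control, 92.0 in Model and 102 in MUS. In the same order it was 266, 1448 and 1140 for Cd14, and 13.1, 154 and 145 for Fcgr1. Of the markers of other cells, the 5 neutrophil genes summed to 20.2 to 34.1 FPKM in Control, 60.2 to 113 in Model and 54.7 to 68.7 in MUS, and the defining neutrophil genes Ly6g, Retnlg and S100a9 were at 0 in all 6 libraries. The B cell, T and innate lymphocyte, eosinophil, mast cell, mesothelial and erythroid lists summed to at most 6.06 FPKM each in any library. The neutrophil sum was thus higher in every Model and MUS library than in Control, through S100a8 alone. S100a8 had 13.5 and 30.6 FPKM in Control, 110 and 56.5 in Model, with 64.0 and 50.3 in MUS. Mmp8, the other marker detected, had 6.62 and 3.48, 2.63 and 3.65, and 4.69 and 4.37 FPKM. Its Model and MUS libraries each overlapped Control, while MUS lay above Model. The part of neutrophils in the results below was not tested. In bulk RNA, fewer cells of a type and less RNA per cell cannot be told apart.

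The library size behind the deposited FPKM was 1.45 and 1.34 times the fragments on genes in the Control libraries, but 0.909 to 0.998 times in Model and MUS. Scaling to the fragments on genes instead lowers the median log2 fold change of all genes tested to -0.40 in Model vs. Control and -0.39 in MUS vs. Control, so a direction against Control is relative to the scale in use.

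Levels differed 47.1-fold between the highest and lowest tested members, averaged over the 6 libraries. The median member had 11.1 FPKM, against 5.67 FPKM for all 9794 genes tested, with 20 members over 10 FPKM and 6 under 5. The order ran from Ndufa2 (74.7 FPKM), an accessory subunit with a thioredoxin-like fold at the end of the matrix arm, through Ndufa1 (49.4), a single-pass membrane subunit, and Ndufa8 (36.5), which lies on the intermembrane face. At its lower end were Ndufa12 (2.70), Ndufab1 (2.18), Ndufb2 (2.13) and Ndufb8 (1.59). In this order, the ranges over libraries overlapped for 36 of 36 pairs of neighbours, so no neighbouring rank was separated beyond the spread.

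FPKM divides by the length of all exons of a gene, which was 8086 bases for Ndufs1 and 6883 for Ndufab1, but 572 for Ndufa2. Divided instead by the median length of the protein-coding transcripts in GENCODE M21 (651, 984 and 572 bases for these 3 genes), the mean level was 67.5 for Ndufs1, in place of 5.44, and 15.2 for Ndufab1. Ndufa4 (85.9) and Ndufb5 (76.8) then led the order, the highest and lowest levels differed 17.3-fold in place of 47.1-fold, and 14 members moved by more than 5 ranks. Ratios of a gene's FPKM between libraries use the same length in every library and do not depend on this choice. Fitted fold changes and their tests can depend on it. For these a constant is added to FPKM before the logarithm is taken, and genes are filtered on mean FPKM. The fits were not repeated with the other length. Genes also differed in how uniquely their fragments can be placed: 15 members shared none of their 50-base stretches with another gene, and 9 shared more than 10%. The largest shares were those of Ndufb6 (31.6%, most with the overlapping gene Smim27) and Ndufa13 (28.5%, with the overlapping Tssk6).

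**Figure D1:**
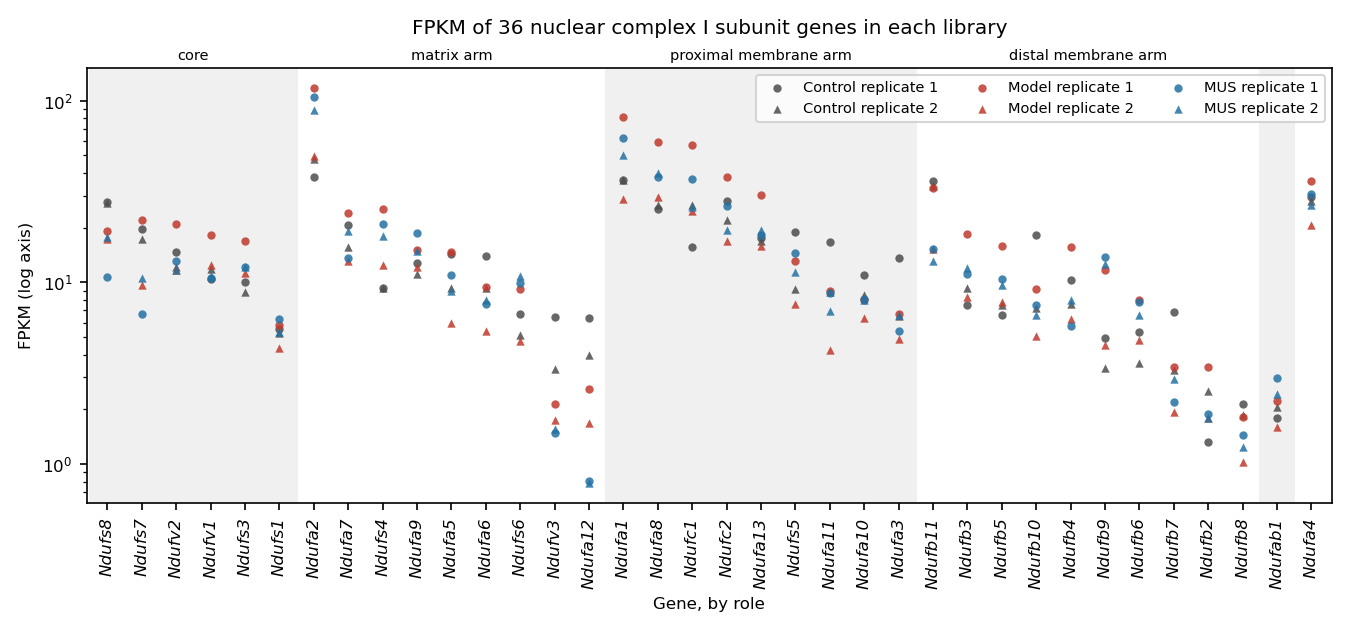
FPKM on a log axis of 36 of the 37 tested members in each library, grouped by role and ordered by mean within each role. Circles are replicate 1 and triangles replicate 2. Model replicate 1 (red circle) lies above Model replicate 2 (red triangle) for every gene shown, and the 2 MUS libraries of Ndufa12, at 0.801 and 0.785 FPKM, lie under the other 4.

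The Model libraries disagreed on the whole family. All 37 tested members were higher in Model replicate 1 than in Model replicate 2, against 51.8% of all genes tested. The median difference of log2(FPKM + 1) was 0.78 over the members and 0.02 over all genes tested. The ratio of replicate 1 to replicate 2 in FPKM ran from 1.11 for Ndufs8 to 2.81 for Ndufa1, with a median of 1.80, and was over 2 for 14 members. The other groups were closer, with 27 of 37 members higher in replicate 1 of Control (median difference 0.19) and 23 of 37 in MUS (0.12).

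Summed over all members, the level was 554 and 489 FPKM in Control, 826 and 416 FPKM in Model, with 608 and 558 FPKM in MUS (521 ± 46.0, 621 ± 290 and 583 ± 35.1, SD, n = 2 each). Both MUS libraries thus lay between the Model libraries, as did both Control libraries. Gene by gene, both MUS libraries lay between the Model libraries for 22 of 37 members, against 22.3% of all genes tested. As a share of all fragments on genes, the members took 0.120% and 0.0969% in Control, 0.106% and 0.0633% in Model, with 0.0794% and 0.0784% in MUS. Model replicate 1 also had a lower level of long genes relative to short ones, with r = -0.15 between log2 gene length and the deviation of log2(FPKM + 1) from the gene's mean, across genes, which are not independent. The median length of the members was 1569 bases, against 3910 for all genes tested, and the part of gene length in the difference between the Model libraries was not tested.

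**Figure D2:**
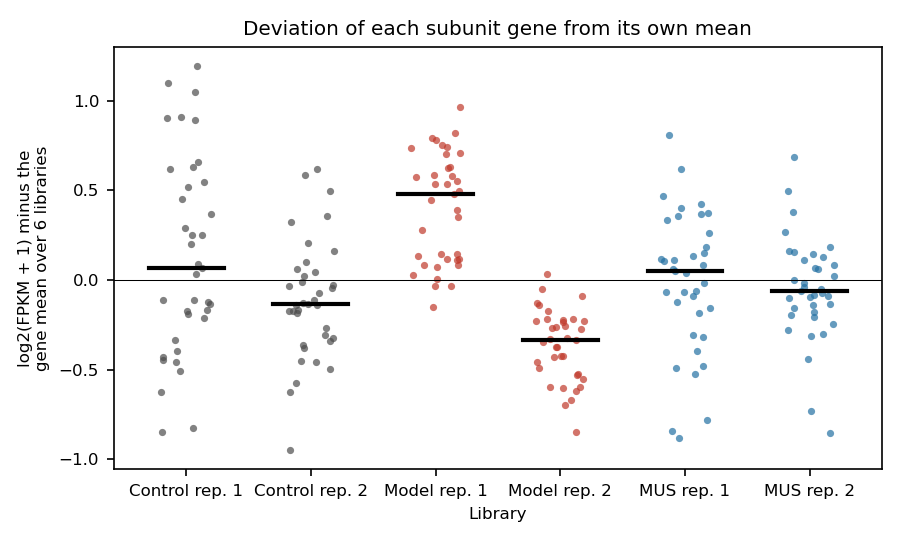
Deviation of log2(FPKM + 1) of each tested member from its own mean over the 6 libraries (points) with the median of the 37 members in each library (black bar). Model replicate 1 has the highest and Model replicate 2 the lowest median, and the difference between replicates 1 and 2 has a median of 0.78 in Model, 0.19 in Control and 0.12 in MUS.

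Model vs. Control asks what LPS and ATP did to these transcripts. None of the 37 members passed the test (0 called, limma on log2(FPKM + 1), Benjamini-Hochberg adjusted p of at most 0.05 over all genes tested), whereas 17.3% of all genes tested did. At an unadjusted p under 0.05 there were 3 members, Ndufs4 above 0 and Ndufa12 and Ndufv3 below, against 33.6% of all genes. The libraries of the groups did not overlap for 7 members higher and 6 lower in Model, against 32.6% and 28.5% of all genes. The median log2 fold change was 0.03 over the members and 0.04 over all genes tested, with 19 members above 0 (52.5% of all genes were) and 18 below. With 1 Model library left out, this median was -0.34 without replicate 1 and 0.39 without replicate 2, so its sign depended on the library. By role, the median log2 fold change was 0.22 for the core, -0.02 for the matrix arm, 0.03 for the proximal and 0.23 for the distal membrane arm.

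MUS vs. Model asks what muscone changed in stimulated cells. Again 0 of 37 members were called by limma, as were 0.0% of all genes tested, and only Ndufa12 had an unadjusted p under 0.05, as did 8.42% of all genes. The study, with another test (DESeq2), did call genes in MUS vs. Model. In this comparison 3 members were higher and 3 lower without overlap of the libraries, against 21.2% and 21.0% of all genes. The median log2 fold change was -0.03 over the members, with 17 above 0 (51.3% of all genes), and 0.01 over all genes. It was 0.33 without Model replicate 1 and -0.44 without Model replicate 2. The core stood at -0.31, with 6 of 7 genes below 0, the distal membrane arm at -0.06, the matrix arm at 0.11 and the proximal membrane arm at 0.05. The lowest log2 fold changes were those of Ndufa12 (-0.79), Ndufs7 (-0.74) and Ndufb11 (-0.63), and the highest those of Ndufb9 (0.77), Ndufs6 (0.57) and Ndufab1 (0.35).

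MUS vs. Control sets muscone-treated stimulated cells against untreated cells and so combines LPS, ATP and muscone. It shares the Control libraries with the first comparison and the MUS libraries with the second. Here 4 of 37 members were called by limma, 1 higher (Ndufb9) and 3 lower (Ndufa12, Ndufv3 and Ndufb11), and all 4 also had an absolute log2 fold change over 1. Of all genes tested, 24.4% were called, 13.0% higher and 11.4% lower, and 20.2% with a log2 fold change of that size. At an unadjusted p under 0.05 there were 3 members higher and 5 lower, against 39.7% of all genes in either direction. The libraries did not overlap for 14 members higher and 10 lower, against 39.6% and 33.8% of all genes. The median log2 fold change was -0.04 over the members, with 16 above 0 (52.3% of all genes) and 21 below, and 0.04 over all genes. With a library left out, the count of members called changed, and so did the share of all genes called. The member median then ran from -0.05 to 0.07. With fragment-total scaling 6 members were called, 0 higher and 6 lower, against 33.8% of all genes. With quantile normalization there were 1 higher and 5 lower (24.1% of all genes). The gene-length correction gave 2 higher and 4 lower (27.2% of all genes). A trend with GC content also moved with the groups. Across genes, which are not independent, the correlation of GC content with the deviation of log2(FPKM + 1) from the gene's mean was 0.27 and 0.20 in Control, 0.02 and -0.06 in Model, with -0.46 and -0.22 in MUS. With a GC correction, 1 member was called higher and 2 lower in MUS vs. Control, against 20.3% of all genes. Ndufb11 was then no longer called (limma adjusted p = 0.0613).

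**Figure D3:**
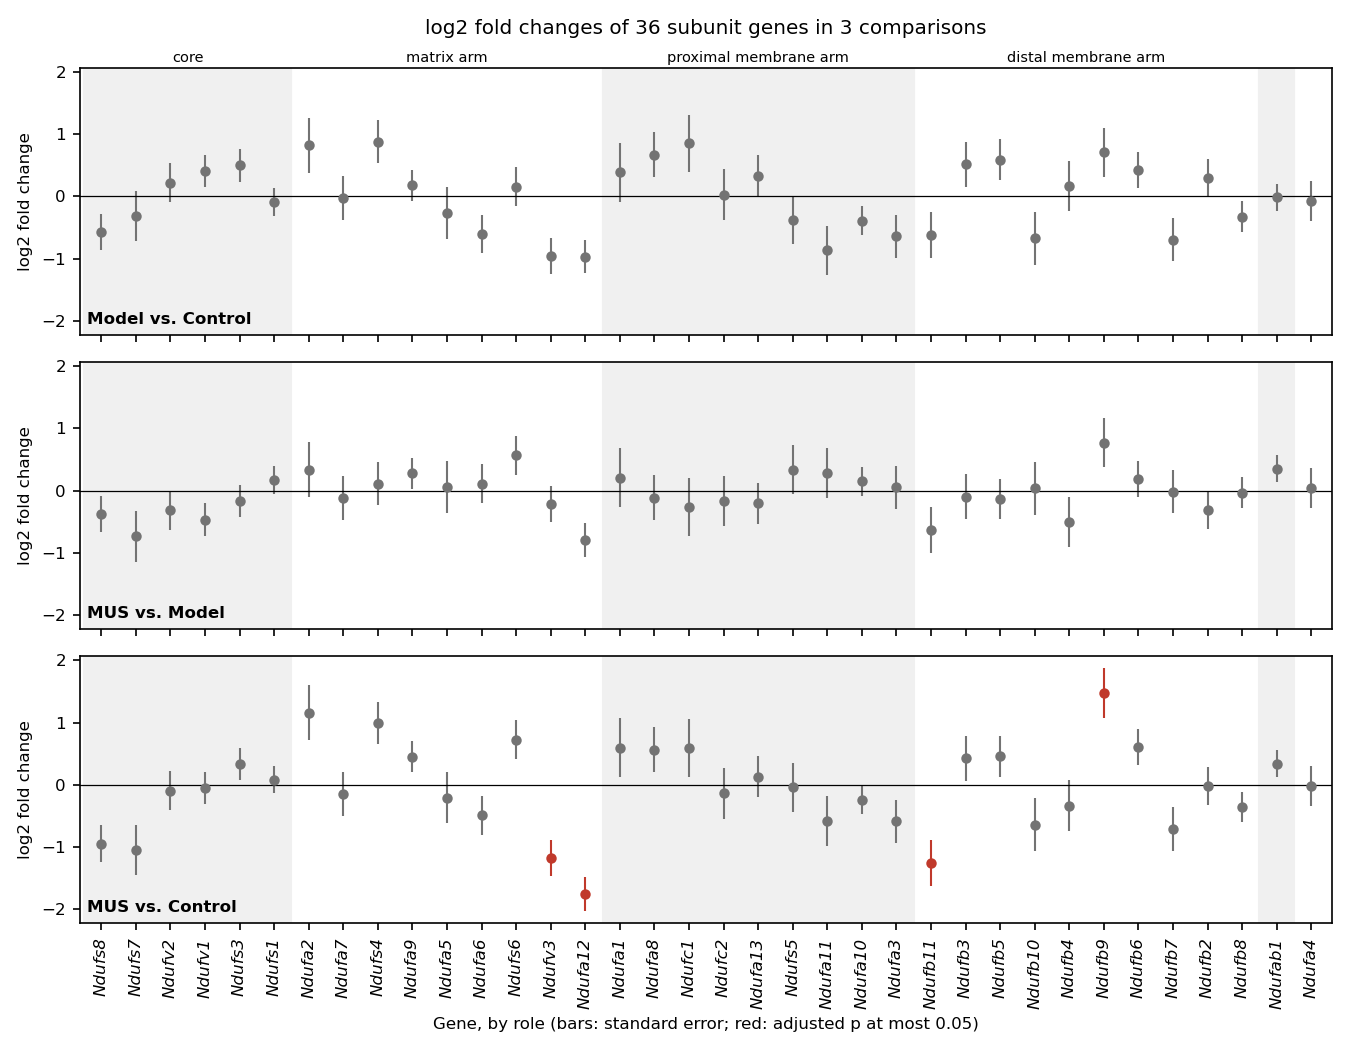
Fitted log2 fold changes (points) with their standard errors (bars) for 36 of the 37 tested members, by role, in Model vs. Control, MUS vs. Model and MUS vs. Control. Red marks the 4 genes with an adjusted p of at most 0.05, all in MUS vs. Control, where Ndufa12 is lowest at -1.75 and Ndufb9 highest at 1.48.

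The 4 called genes are accessory subunits. Ndufa12 (ENSMUSG00000020022, chromosome 10, 94198720 to 94221443, plus strand) is a matrix arm subunit near the base of the NADH-oxidising module, related to the assembly factor Ndufaf2. It had 6.38 and 3.96 FPKM in Control, 2.57 and 1.69 in Model, with 0.801 and 0.785 in MUS, from 229, 142, 57, 41, 19 and 20 fragments. The 3 groups did not overlap, and their order was Control, Model, MUS. The log2 fold change was -1.75 ± 0.27 (SE) in MUS vs. Control (limma adjusted p = 0.00643). Between Model and Control it was -0.96 ± 0.27 (adjusted p = 0.0512, or 0.0359 with the replicate number as a block), and between MUS and Model -0.79 ± 0.27 (adjusted p = 0.488). In MUS vs. Control it was called in 17 of 19 alternatives. The exceptions were the fit without a filter on low values (adjusted p = 0.0568) and the one without MUS replicate 1 (adjusted p = 0.0686). Part of its fragments are uncertain, since 17.7% of its 50-base stretches are shared with Gm15920.

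Ndufv3 (ENSMUSG00000024038, chromosome 17, 31520115 to 31531326, plus strand) encodes a small subunit attached to the flavoprotein end of the matrix arm, where NADH binds. It had 6.45 and 3.35 FPKM in Control, 2.13 and 1.74 in Model, with 1.49 and 1.56 in MUS. Again the 3 groups did not overlap, although both Model libraries were close to MUS. The log2 fold change was -1.17 ± 0.29 (SE) in MUS vs. Control (limma adjusted p = 0.0273). Without a filter on low values that adjusted p was 0.130. Between Model and Control the log2 fold change was -0.96 ± 0.29 (adjusted p = 0.0628, or 0.0477 with the replicate block). Between MUS and Model it was -0.22 ± 0.29 (adjusted p = 0.893). The call against Control was lost without Control replicate 1 (log2 fold change -0.79, adjusted p = 0.113), without MUS replicate 1 (0.168) and without MUS replicate 2 (0.119).

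Ndufb11 (ENSMUSG00000031059, chromosome X, 20615326 to 20617619, minus strand) encodes a single-pass subunit of the distal membrane arm. It had 36.0 and 34.1 FPKM in Control, 32.9 and 15.2 in Model, with 15.2 and 13.1 in MUS. Model replicate 1 lay near Control and Model replicate 2 near MUS. The log2 fold change in MUS vs. Control was -1.25 ± 0.37 (SE, limma adjusted p = 0.0490), and it was called in 13 of 20 alternatives. The adjusted p was 0.0550 with 0.1 in place of 1 added to FPKM, and 0.175 without a filter on low values. With a GC correction the adjusted p was 0.0613, and leaving out any single Control or MUS library gave 0.0901 to 0.219. Exons of Rbm10 on the other strand cover 12.9% of its exon bases and 17.5% of its 50-base stretches are shared, most with Gm6444. The library protocol as given does not mark strand, so reads from Ndufb11 and Rbm10 cannot be told apart there.

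Ndufb9 (ENSMUSG00000022354, chromosome 15, 58933756 to 58939488, plus strand), a distal membrane arm subunit of the LYR family, was the single member called higher. It had 4.96 and 3.39 FPKM in Control, 11.7 and 4.51 in Model, with 13.9 and 12.7 in MUS. Both MUS libraries were above the other 4, and Model replicate 2 lay within the Control range. The log2 fold change in MUS vs. Control was 1.48 ± 0.40 (SE, limma adjusted p = 0.0367). Between Model and Control it was 0.71 ± 0.40 (adjusted p = 0.252), and between MUS and Model 0.77 ± 0.40 (adjusted p = 0.679). The call was lost with fragment-total scaling (1.02, adjusted p = 0.0786) and without any single Control or MUS library (0.0810 to 0.204). It was also lost without a filter on low values (limma adjusted p = 0.167). Of the exon bases of Ndufb9, 19.5% overlap Gm49356 on the same strand.

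**Figure D4:**
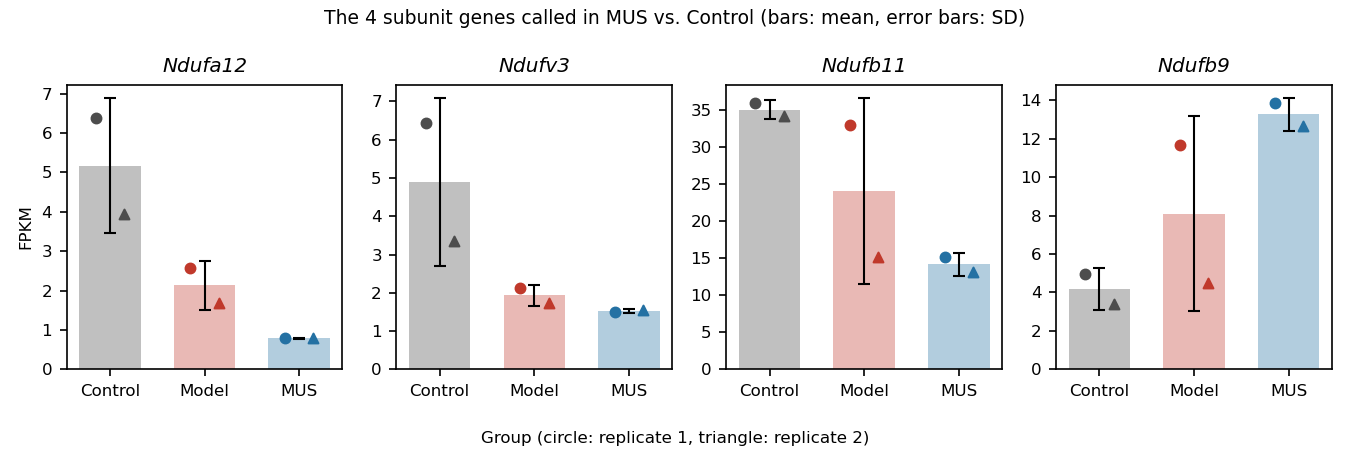
FPKM of the 4 members called in MUS vs. Control, with the mean (bar), the SD (error bar) and both libraries of each group (circle for replicate 1, triangle for replicate 2). Ndufa12 falls from 6.38 and 3.96 FPKM in Control to 0.801 and 0.785 in MUS, Ndufv3 and Ndufb11 also have their lowest mean in MUS, and Ndufb9 is highest there at 13.9 and 12.7.

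Since both Model libraries and the Control scale move the family as a whole, the called genes were also read as a share of the family's summed FPKM within each library, which no scaling factor changes. Ndufa12 made up 1.15% and 0.809% in Control, 0.312% and 0.406% in Model, with 0.132% and 0.141% in MUS. Ndufv3 made up 1.16% and 0.686%, 0.258% and 0.418%, and 0.245% and 0.279% in the same order. Both shares were lower in every stimulated library than in Control. The share of Ndufb11 was 6.50% and 6.98% in Control, 3.99% and 3.66% in Model, with 2.51% and 2.35% in MUS, and on this scale its Model libraries no longer spanned the distance between Control and MUS. The share of Ndufb9 was 0.896% and 0.694%, 1.42% and 1.08%, and 2.28% and 2.27%. On these shares, the 3 groups were separate for Ndufa12, Ndufb11 and Ndufb9, while Model and MUS overlapped for Ndufv3. Such separation was not limited to called genes, as the 3 groups were separate for 10 of 37 members. In 3 of them the share fell from Control through Model to MUS (Ndufa12, Ndufb11 and Ndufs7). In 4 it rose in that order (Ndufb9, Ndufa2, Ndufs4 and Ndufb6). No such count was made for all genes tested, so these counts mark nothing particular to the members. Separation of only 2 groups in FPKM is another measure and gives no background for these counts. By that measure, 39.6% of all genes were higher and 33.8% lower in MUS than in Control without overlap.

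For the 3 members that were lower together, the RefSeq promoters (GRCm38.p6, 250 bases before the transcription start, 5′ to 3′ on the gene's strand) are shown to let their sequences be compared. They are chr10:94198785-94199034 on the plus strand for Ndufa12, chr17:31519865-31520114 on the plus strand for Ndufv3 and chrX:20617620-20617869 on the minus strand for Ndufb11. The RefSeq start of Ndufa12 differs from that of the deposited table, and its window lies inside the gene as placed there. Capitals mark ATTGG, the reverse complement of the CCAAT box.
Ndufa12: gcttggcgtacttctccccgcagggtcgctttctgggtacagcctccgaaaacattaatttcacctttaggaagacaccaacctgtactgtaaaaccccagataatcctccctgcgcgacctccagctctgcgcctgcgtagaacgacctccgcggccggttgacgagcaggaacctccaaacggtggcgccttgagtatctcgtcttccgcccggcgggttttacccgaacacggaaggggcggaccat
Ndufv3: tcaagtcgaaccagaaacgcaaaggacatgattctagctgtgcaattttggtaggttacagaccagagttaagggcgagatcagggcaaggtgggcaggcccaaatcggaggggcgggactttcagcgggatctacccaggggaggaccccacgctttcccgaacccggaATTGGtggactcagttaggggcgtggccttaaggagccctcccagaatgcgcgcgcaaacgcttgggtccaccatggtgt
Ndufb11: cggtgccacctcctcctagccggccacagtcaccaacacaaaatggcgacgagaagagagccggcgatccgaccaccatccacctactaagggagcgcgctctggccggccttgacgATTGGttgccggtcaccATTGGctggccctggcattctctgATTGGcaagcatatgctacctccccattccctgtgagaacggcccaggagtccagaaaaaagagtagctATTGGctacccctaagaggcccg

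The promoters of Ndufa12, Ndufv3 and Ndufb11 held 22, 14 and 14 CG pairs. The median was 15 over the 35 promoters found for members and 6 over the 32851 promoters of the RefSeq table. ATTGG occurs 4 times for Ndufb11, once for Ndufv3 and not in the 250 bases shown for Ndufa12. Each motif was searched on both strands in these windows, by gene, for 33 members and 27025 genes in all. CCAAT was found in 30.3% of members and 37.5% of all genes. The ETS motif CCGGAAG was found in 9.09% of members (Ndufb6, Ndufb7 and Ndufs3) and 7.83% of all genes. The NRF1 motif GCGCATGCG was found in 6.06% of members (Ndufa8 and Ndufa11) and 1.64% of all genes, and TATAAA in 12.1% and 14.3%. The YY1 motif AAGATGGC and the ERR motif TCAAGGTCA were in no member window, against 1.83% and 0.422% of all genes. These letters are a description of the windows and mark no site of binding.

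None of the 7 core subunits was called in any comparison. Ndufs8, which carries iron-sulfur clusters of the matrix arm, had 27.8 and 27.4 FPKM in Control, 19.2 and 17.3 in Model, with 10.7 and 17.8 in MUS. Both treated groups lay below Control, and MUS replicate 2 lay within the Model range. Its log2 fold change in MUS vs. Control was -0.95 ± 0.29 (SE, limma adjusted p = 0.0557). Ndufs7, which carries the last cluster before ubiquinone, had 19.8 and 17.2 FPKM in Control, 22.2 and 9.62 in Model, with 6.70 and 10.5 in MUS. MUS was below Control without overlap, while Model spanned Control. The log2 fold change of MUS was -1.05 ± 0.40 against Control (adjusted p = 0.101) and -0.74 ± 0.40 against Model (adjusted p = 0.699).

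Ndufs1, the largest core subunit, which carries clusters of the NADH module, stayed within 4.37 to 6.28 FPKM over all libraries, with log2 fold changes of -0.09, 0.17 and 0.08 in Model vs. Control, MUS vs. Model and MUS vs. Control (SE 0.22 each). Ndufv1, which binds NADH and the flavin, had 10.4 and 11.9 FPKM in Control, 18.3 and 12.5 in Model, with 10.6 and 10.8 in MUS. Its partner Ndufv2, with another cluster, had 14.6 and 12.1, 20.9 and 11.6, and 13.0 and 11.8 FPKM. For both, MUS lay in or near the Control range, and Model replicate 1 was the highest library. Ndufs3, a subunit of the part of the arm next to the membrane, had 10.1 and 8.83 FPKM in Control, 16.9 and 11.2 in Model, with 12.1 and 12.2 in MUS. It was higher in every stimulated library than in Control, with a log2 fold change of 0.33 ± 0.26 in MUS vs. Control (limma adjusted p = 0.378).

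Among the other matrix arm subunits, Ndufs4 (chromosome 13, 114287795 to 114388258) and Ndufa2 had the highest log2 fold changes against Control. Ndufs4, whose loss in mice is a model of Leigh syndrome, had 9.25 and 9.26 FPKM in Control, 25.4 and 12.5 in Model, with 20.9 and 18.0 in MUS. Every stimulated library was above both Control libraries. Its log2 fold change against Control was 0.88 ± 0.34 for Model (limma adjusted p = 0.122) and 0.99 ± 0.34 for MUS (adjusted p = 0.0752). Ndufa2 had 38.1 and 48.0 FPKM in Control, 118 and 49.4 in Model, with 105 and 89.1 in MUS, with a log2 fold change of 1.16 ± 0.44 in MUS vs. Control (adjusted p = 0.0954). Model replicate 2 was close to Control and the other 3 stimulated libraries stood well above it. Ndufs6, which carries zinc, had 6.67 and 5.16 FPKM in Control, 9.23 and 4.74 in Model, with 9.87 and 10.9 in MUS (0.73 ± 0.31 in MUS vs. Control, adjusted p = 0.130). The remaining matrix arm genes, Ndufa5, Ndufa6, Ndufa7 and Ndufa9, had log2 fold changes between -0.60 and 0.45 in the 3 comparisons, and none had an unadjusted p under 0.05.

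The proximal membrane arm gave no call. Its lowest value in Model vs. Control was that of Ndufa11 (-0.87 ± 0.40, limma adjusted p = 0.175), a subunit at the foot of the membrane arm, with 16.7 and 8.89 FPKM in Control, 9.02 and 4.26 in Model, with 8.72 and 6.99 in MUS. Its highest was that of Ndufc1 (0.85 ± 0.46, adjusted p = 0.238), with 15.6 and 26.6, 57.3 and 24.7, and 37.2 and 26.1 FPKM. For Ndufa11 and for Ndufc1 the Control and Model libraries overlapped. Ndufa13 (GRIM-19), also known for its binding to STAT3, had 17.6 and 16.8 FPKM in Control, 30.3 and 15.8 in Model, with 18.3 and 19.5 in MUS, and apart from Model replicate 1 its libraries lay between 15.8 and 19.5 FPKM.

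In the distal membrane arm, the 8 genes other than Ndufb9 and Ndufb11 had log2 fold changes from -0.71 (Ndufb7) to 0.61 (Ndufb6) in MUS vs. Control, and none had an unadjusted p under 0.05. Ndufb7 had 6.91 and 3.28 FPKM in Control, 3.42 and 1.93 in Model, with 2.19 and 2.95 in MUS. Ndufab1, which carries the acyl chain of mitochondrial fatty acid synthesis and is held by LYR subunits, had 1.79 and 2.06 FPKM in Control, 2.21 and 1.60 in Model, with 2.97 and 2.44 in MUS. Its MUS libraries were above the other 4, but the log2 fold change of 0.34 ± 0.22 in MUS vs. Control had an adjusted p of 0.292 (limma). Ndufa4, a complex IV subunit, had 29.6 and 28.0 FPKM in Control, 36.3 and 20.8 in Model, with 30.5 and 26.6 in MUS, with a log2 fold change of -0.02 ± 0.32 in MUS vs. Control.

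The nuclear genes were set beside the 7 complex I genes of mitochondrial DNA. Their summed level was 4411 and 5395 FPKM in Control, 2285 and 2463 in Model, with 435 and 931 in MUS. Divided by the summed level of the nuclear members in the same library, which removes the library's scale, this was 7.96 and 11.0 in Control, 2.77 and 5.92 in Model, with 0.717 and 1.67 in MUS (9.50 ± 2.17, 4.35 ± 2.23 and 1.19 ± 0.673, SD, n = 2 each). The groups did not overlap, and an exact permutation test of 2 libraries against 2 cannot give a p below 0.333. The sum of the nuclear members alone was 489 to 554 FPKM in Control, 416 to 826 in Model and 558 to 608 in MUS. Its direction between Control and MUS depends on the measure. As a share of fragments on genes, the members took 0.120% and 0.0969% in Control, against 0.0794% and 0.0784% in MUS.

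Of the mitochondrial genes, 3 of 7 were called lower in Model vs. Control (mt-Nd1, mt-Nd4 and mt-Nd4l), 0 of 7 in MUS vs. Model, with 4 lower at an unadjusted p under 0.05 (limma), and 5 of 7 in MUS vs. Control (the same 3 with mt-Nd2 and mt-Nd6). Of all genes tested, 17.3%, 0.0% and 24.4% were called in these comparisons, and 8.42% had an unadjusted p under 0.05 in MUS vs. Model. The values of mt-Nd4l rest on few fragments, 24 and 22 in Control, 1 and 6 in Model, with 2 and 3 in MUS. The median log2 fold change of the 7 was -1.38, -1.38 and -2.83 in these comparisons, against 0.04, 0.01 and 0.04 for all genes tested, and mt-Nd3 and mt-Nd5 were not called. Nuclear copies make several of these uncertain, as 98.8% of the 50-base stretches of mt-Nd4l, 98.0% of those of mt-Nd3 and 62.2% of those of mt-Nd4 occur in another gene, against 0% for mt-Nd1 and mt-Nd6. With mt-Nd1 alone over the nuclear sum, the ratio was 2.18 and 2.20 in Control, 0.419 and 0.817 in Model, with 0.161 and 0.315 in MUS. The groups were separate with this gene too. The study, with DESeq2 on the same libraries, listed mt-Nd1 and mt-Nd4 among genes differing in both Model vs. Control and MUS vs. Model.

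**Figure D5:**
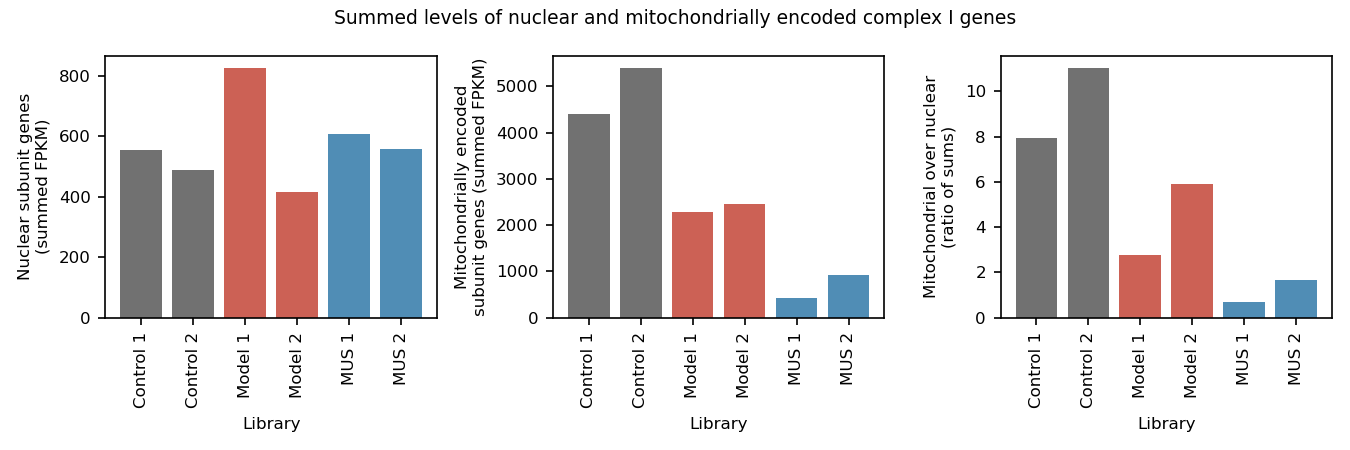
Summed FPKM per library of the nuclear members (left), of the 7 mitochondrially encoded complex I genes (middle) and their ratio (right). The nuclear sum lies between 416 and 826 FPKM with both extremes in Model, while the mitochondrial sum goes from 4411 and 5395 FPKM in Control to 435 and 931 in MUS.

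Genes that build complex I were read from the list of assembly factors, of which 16 were found in the table and 15 tested. In Model vs. Control 1 was called, against 17.3% of all genes tested, namely Foxred1, a flavoprotein of assembly, at 2.04 and 2.08 FPKM in Control, 4.59 and 4.04 in Model, with 3.73 and 3.96 in MUS (0.80 ± 0.19, limma adjusted p = 0.0333). Every stimulated library was above Control, and Foxred1 was also called in MUS vs. Control (0.66, adjusted p = 0.0468). In that comparison, where 24.4% of all genes were called, 2 factors were called lower. Tmem126b, part of the assembly complex of the membrane arm, had 3.47 and 2.60, 1.63 and 1.80, and 1.21 and 1.27 FPKM (-0.84 ± 0.22, adjusted p = 0.0322). Ndufaf7, a methyltransferase of early assembly, had 2.15 and 2.17, 1.38 and 1.07, and 0.397 and 0.844 FPKM (-0.98 ± 0.24, adjusted p = 0.0283). Both were lower in every stimulated library than in Control. In MUS vs. Model no assembly factor was called (limma), and 2 had an unadjusted p under 0.05, against 8.42% of all genes tested. The log2 fold change was below 0 for 14 of 15 and above 0 for 1, whereas 51.3% of all genes were above 0. The median was -0.29, against 0.01 for all genes tested. Against Control, the median of the list was 0.01 for Model and -0.32 for MUS.

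Of 9 regulators of respiratory chain genes, 7 were tested and 1 was called, in MUS vs. Control only, where 24.4% of all genes tested were called. The list medians were 0.17, 0.01 and 0.07 in Model vs. Control, MUS vs. Model and MUS vs. Control. Gabpb1, a subunit of the ETS factor GABP (NRF2), had 1.97 and 3.83 FPKM in Control, 7.12 and 5.71 in Model, with 8.45 and 6.52 in MUS, and was higher in MUS vs. Control (1.15 ± 0.29, limma adjusted p = 0.0304). Its stimulated libraries were all above Control. Ppargc1a and Ppargc1b, the PGC-1 coactivators, were below the filter, at no more than 0.172 and 0.756 FPKM. Of the 7 genes that feed ubiquinone by other routes, 6 were tested and none was called in any comparison (limma). Only 1 of them, Gpd2, had an unadjusted p under 0.05, in both comparisons with Control. That was so for 33.6% of all genes tested in Model vs. Control and 39.7% in MUS vs. Control. The medians of this list were 0.25, -0.13 and 0.07 in the same order. Gpd2, the mitochondrial glycerol-3-phosphate dehydrogenase, had 4.86 and 22.4 FPKM in Control and 31.7 to 46.2 in the stimulated libraries. Its Control libraries differed from each other by more than the stimulated ones did.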

How the data were processed

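RNA-seq libraries of Control, Model and MUS cells (n = 2 each) were analysed. The authors deposited FPKM per gene, with no other unit. The study's methods name RSEM for quantification and DESeq2 for DEGs, whereas the submitters' processing notes name HISAT2, featureCounts 1.5.0-p3 and GRCm39. Positions in the table are those of GRCm38: start and end were identical to GENCODE M21 for 98.3% of the 54409 gene identifiers found in both. For every library, FPKM times gene length was a whole multiple of a single step for 100% of values, within a tolerance of 0.1 of the step, which gave fragments per gene and the depths stated. Intervals and limits cover counting error only.

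limma 3.58.1 in R 4.3.3 was fitted with a mean-variance trend to log2(FPKM + 1), taking all 6 libraries into a model of 3 groups. Genes under a mean of 1 FPKM were left out, which kept 9794. The pseudocount of 1 makes the fold change of low genes smaller. Tests were two-sided, with Benjamini-Hochberg adjustment over all genes tested. The fit left 3 residual degrees of freedom, to which 4.04 prior degrees of freedom were added. It was also run on simulated data, with planted changes larger than that of any member. That run does not cover changes of the members' size. DESeq2 was not run. The fit reported used the deposited unit, FPKM, and the recovered fragments entered fits only as alternatives. Tables were made with pandas 2.3.3 and NumPy 2.4.6 under Python 3.11.15, and figures with Matplotlib 3.10.9.

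The labels give the replicate number as the batch, so same-numbered libraries are paired by label. Across genes, replicate differences correlated with r = 0.12 (Control and Model), 0.14 (Model and MUS) and -0.09 (Control and MUS). The block was used as an alternative. Other alternatives were fits of only the groups compared, no trend, another pseudocount, other filters, 3 other scalings, voom on the fragments, a gene-length correction, leaving out each library and, chosen after seeing the data, a GC correction.

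The members and lists were chosen with earlier results of these data known. Named genes are the core subunits, Ndufs4, Ndufa4, Ndufa4l2, Ndufa13, Ndufab1, every member called, the 3 highest and 3 lowest log2 fold changes of each comparison, the 7 mitochondrial genes, and assembly factors or regulators called. Other genes named (Ndufa1, Ndufa8, Ndufb7, Gpd2 and the like) were chosen after their values were seen. Promoters are from RefSeq; those of 33 member genes were matched. The result for 1 gene is not reported here on its own, and it is left out of the plots by gene.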

Additional observations from a re-analysis of the deposited data

How the results depend on the processing

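In Model vs. Control the count of members called, 0 in the fit reported, was 2 with the replicate block (Ndufa12 and Ndufv3), 7 with fragment-total scaling (all lower, against 28.4% of all genes), 1 with median-of-ratios scaling, 2 with the gene-length correction with and without the block, 1 with the GC correction with and without the block, and 0 to 3 with a library left out (3 lower without Control replicate 2, 3 higher without Model replicate 2). In MUS vs. Control the count, 4 in the fit reported (24.4% of all genes), was 7 with only the groups compared (26.7%). Without a filter on low values it was 0, when 1.55% of all genes were called (limma, 7 members at an unadjusted p under 0.05). Counts against Control also changed with the library left out, as did the share of all genes called. Added to the fit reported, the block changed no other call of the 4 members called. Added to the GC correction it gave Ndufb11 a call in MUS vs. Control (adjusted p = 0.0452 in place of 0.0613, limma), and added to the gene-length correction it took that of Ndufv3 in Model vs. Control (0.0507 in place of 0.0438). In MUS vs. Model the count was 0 in every alternative. The median log2 fold change of members in MUS vs. Control was -0.54 with fragment-total scaling, against -0.39 for all genes, and the cause was not tested beyond that shift. With a library left out it ran from -0.05 to 0.07, and from -0.34 to 0.39 in Model vs. Control and -0.44 to 0.33 in MUS vs. Model, where the choice of Model library sets the sign. Of the 120 counts and medians under alternatives, 103 stayed within 1.5 times the count reported or, for medians, within 0.435 (the SD between replicates of the member median of log2(FPKM + 1)). That limit is wide enough to hold the medians that changed sign. No call turned to the opposite direction. With 2 libraries per group, and 19 to 57 fragments for Ndufa12 in each stimulated library, small differences were not detectable.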

Other observations

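Ndufb1-ps (ENSMUSG00000113902), which the table describes as a B1 subunit but lists as a non-coding biotype, falls outside the naming rule and was chosen after its values were seen. It had 21.5 and 29.4 FPKM in Control, 112 and 59.1 in Model, with 63.6 and 62.9 in MUS. Every stimulated library was above both Control libraries, and Model replicate 1 was the highest. Its log2 fold change was 1.66 ± 0.37 (SE, limma adjusted p = 0.0269) in Model vs. Control, -0.36 (adjusted p = 0.855) in MUS vs. Model and 1.30 (adjusted p = 0.0452) in MUS vs. Control. In Model vs. Control the adjusted p was 0.126 without a filter on low values, 0.0746 with only the groups compared and 0.0597 with quantile normalization. It was 0.105 without Control replicate 1, 0.0889 without Model replicate 1, 0.0753 without MUS replicate 1 and 0.0756 without MUS replicate 2. In MUS vs. Control it was 0.0516 with the replicate block, 0.0506 with the block and the GC correction, 0.108 with fragment-total scaling, 0.107 with quantile normalization and 0.156 without a filter, and it was 0.159 without Control replicate 1, 0.242 without MUS replicate 1 and 0.186 without MUS replicate 2.

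Esrra, an orphan nuclear receptor that regulates respiratory chain genes, had the lowest log2 fold change of the regulators tested in MUS vs. Model (-1.28), with 1.67 and 4.66 FPKM in MUS, against 6.44 and 8.49 in Control and 9.80 and 7.24 in Model. It was not called (limma adjusted p = 0.463 in MUS vs. Model and 0.0700 in MUS vs. Control), and the MUS libraries differed from each other more than those of Control or Model did. It was chosen after its values were seen.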
